A study of Mus musculus with 15 samples.

Results

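The receptors through which neuropeptide Y (NPY), somatostatin and the opioid peptides act were examined in cells of the interneuron lineage sorted from the cortex of mouse embryos labelled as *Lhx6* or *Mtg8* mutants and of their controls. The genes were taken by symbol, and they comprised 3 receptors for NPY (*Npy1r*, *Npy2r*, *Npy5r*), 4 for somatostatin (*Sstr1*, *Sstr2*, *Sstr3*, *Sstr4*) and 3 for opioids (*Oprm1*, *Oprd1*, *Oprk1*). Of these 10 genes, 9 were listed among the 26835 genes of the *Lhx6* comparison and 7 among the 25714 genes of the *Mtg8* comparison. *Oprk1* was not analysed here, and *Oprm1* and *Oprd1* were examined in the *Lhx6* comparison only. A mean of at least 10 normalized counts over the libraries of a comparison was required for testing, which 5 of the receptors reached in the *Lhx6* comparison and 4 in the *Mtg8* comparison.

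All of these receptors are G protein-coupled receptors that signal mainly through inhibitory G proteins of the Gi/o class. Their activation lowers cyclic AMP, opens inwardly rectifying potassium (GIRK) channels and closes calcium channels, which dampens firing and transmitter release. Somatostatin and NPY are made by many interneurons that arise in the medial ganglionic eminence (MGE), so that interneurons of the mature cortex both release these peptides and respond to them.

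Embryos were taken at E14.5, and cells of the MGE lineage in the cortex were sorted by the YFP that Nkx2-1-Cre switches on from the *R26R-YFP* reporter. All groups carried this Cre transgene and the floxed reporter, so that cells were selected by a history of *Nkx2-1* expression and not by their later identity. The brighter part of the fluorescent events was collected. *Lhx6* encodes the LIM homeodomain factor of the MGE lineage, and 4 control libraries (Lhx6+/+) were compared with 5 mutant libraries (Lhx6-/-). *Mtg8*, also named *Runx1t1*, encodes a transcriptional co-factor, and 3 control libraries (Mtg8+/+) were compared with 3 libraries labelled *Mtg8* mutant (Mtg8-/-). The mutations were carried in the germline, and each library was made from 1 embryo, with littermates as controls, from a mixed C57BL6/CBA stock of both sexes.

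The libraries held 12218422 to 22053032 reads on genes. *Lhx6* fell from 7247 ± 1093 normalized counts (SD, n = 4) in controls to 331 ± 99.7 (SD, n = 5) in *Lhx6* mutants, a log2 fold change of -4.48. *Runx1t1* was not lower in the libraries labelled *Mtg8* mutant, where it had 12845 ± 944 normalized counts (SD, n = 3) against 8891 ± 1219 (SD, n = 3), and every direction given for those libraries rests on the label. The mutant allele is a lacZ knock-in, and a count over the whole gene does not show which of its exons were read. In *Lhx6* mutants *Runx1t1* had 17972.5 ± 5387 normalized counts (SD, n = 5) against 7449 ± 1072 (SD, n = 4), a log2 fold change of 1.23 (adjusted p = 0.00401 from limma, and 0.659 with name style as a covariate, at 0.73). Of 15 listed MGE interneuron markers, 0 were at 0 in any library. Markers of pyramidal neurons were present as well, with 5843 to 23030 summed normalized counts for the 11 genes of that list. Library names with a leading date were found in *Lhx6* mutants 1, 2, 3 and 5, *Mtg8* controls 1 and 2 and the library labelled *Mtg8* mutant 2, whereas the other libraries bore names without one. In the *Lhx6* comparison the name style and the genotype could therefore be told apart only through mutant 6. Names also share codes whose meaning is not given, 1 code for *Lhx6* controls 1 and 2 and mutant 6, 1 for *Lhx6* mutants 2 and 5, and 1 for *Mtg8* controls 1 and 2 and the library labelled mutant 2. The tests treated libraries as independent, and whether libraries of a code share a litter was not tested.

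*Npy2r* lies on chromosome 3 (82538383 to 82548084 on GRCm38, minus strand) and *Sstr2* on chromosome 11 (113619342 to 113626028, plus strand). The 250 bases before the RefSeq start site of each (GRCm38.p6) are shown, written 5′ to 3′ on the strand of the gene. Both genes were chosen as the most abundant receptors and for fold changes of opposite sign in the *Mtg8* comparison. Limma called neither gene there. Capitals mark TGACGTCA, the palindromic cyclic AMP response element, which was found once, 58 bases before the start site of *Sstr2*.
Npy2r, chr3:82548086-82548335: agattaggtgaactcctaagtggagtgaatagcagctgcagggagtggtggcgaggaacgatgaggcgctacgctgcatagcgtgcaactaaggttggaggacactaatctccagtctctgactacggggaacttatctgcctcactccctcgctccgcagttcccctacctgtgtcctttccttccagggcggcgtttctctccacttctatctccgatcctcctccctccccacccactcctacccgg
Sstr2, chr11:113619077-113619326: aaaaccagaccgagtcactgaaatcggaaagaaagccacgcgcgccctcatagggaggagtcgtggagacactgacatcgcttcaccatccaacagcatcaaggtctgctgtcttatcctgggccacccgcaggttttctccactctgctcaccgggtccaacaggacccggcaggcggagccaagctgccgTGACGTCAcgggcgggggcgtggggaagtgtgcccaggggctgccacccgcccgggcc

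TGACGTCA occurs in 1.55% of the 32851 RefSeq promoter windows of this length. Promoter entries were found for 8 of the receptors. Searched on both strands, none of their windows held TAATTA, a core recognised by homeodomain proteins that is present in 4.84% of all windows, or TATAAA, the TATA box, present in 12.4%. CCAAT, present in 33.8%, was found before *Npy5r*, *Sstr3*, *Sstr4* and *Oprm1*. The motifs do not overlap one another. These matches describe the letters of the windows only. Of the other receptors, *Npy1r* and *Npy5r* share a stretch of chromosome 8 (66697192 to 66706792, plus strand, and 66679965 to 66688128, minus strand), with start sites 9328 bases apart and read in opposite directions. *Sstr1* lies on chromosome 12 (58211772 to 58214444, plus strand), *Sstr3* on chromosome 15 (78537008 to 78544685, minus strand) and *Sstr4* on chromosome 2 (148395344 to 148396767, plus strand). *Oprd1* lies on chromosome 4 (132110726 to 132144486, minus strand). *Oprm1* lies on chromosome 10 (6758506 to 7038198, plus strand), where 96 bases of its exons overlap those of *Ipcef1* on the other strand.

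To order the receptors by level, normalized counts were divided by exon length. In *Lhx6* controls *Sstr2* was the most abundant, with 354 ± 67.5 normalized counts per kb (SD, n = 4), above 88.9% of all listed genes. *Npy2r* followed with 107 ± 26.7, and *Sstr1* with 23.3 ± 12.2 (SD, n = 4). The ranges of these 3 genes over the controls, 254 to 402, 67.9 to 128 and 12.13 to 40.5 per kb, did not overlap. *Sstr3* (2.35 ± 0.69), *Npy1r* (1.61 ± 1.49) and *Npy5r* (1.06 ± 1.65) formed a low tier whose ranges overlapped, and *Sstr4*, *Oprd1* and *Oprm1* stood at 0.16, 0.06 and 0.03 per kb. Among the receptors studied, most of the message in *Lhx6* controls thus came from 1 somatostatin receptor and 1 NPY receptor. The nociceptin receptor gene *Oprl1*, which lies outside this set, was abundant as well and is described below.

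In *Mtg8* controls *Npy2r* had 292 ± 62.3 and *Sstr2* had 222 ± 92.8 normalized counts per kb (SD, n = 3), and their ranges, 242 to 362 and 115 to 287, overlapped. *Sstr1* came next at 34.5 ± 2.99 per kb, again apart from its neighbours on either side. *Sstr3* (3.06 ± 3.25), *Sstr4* (1.89 ± 1.74), *Npy1r* (1.49 ± 0.74) and *Npy5r* (1.11 ± 0.67) overlapped. The 2 comparisons were normalized separately, so that levels were not compared between them.

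**Figure D1:**
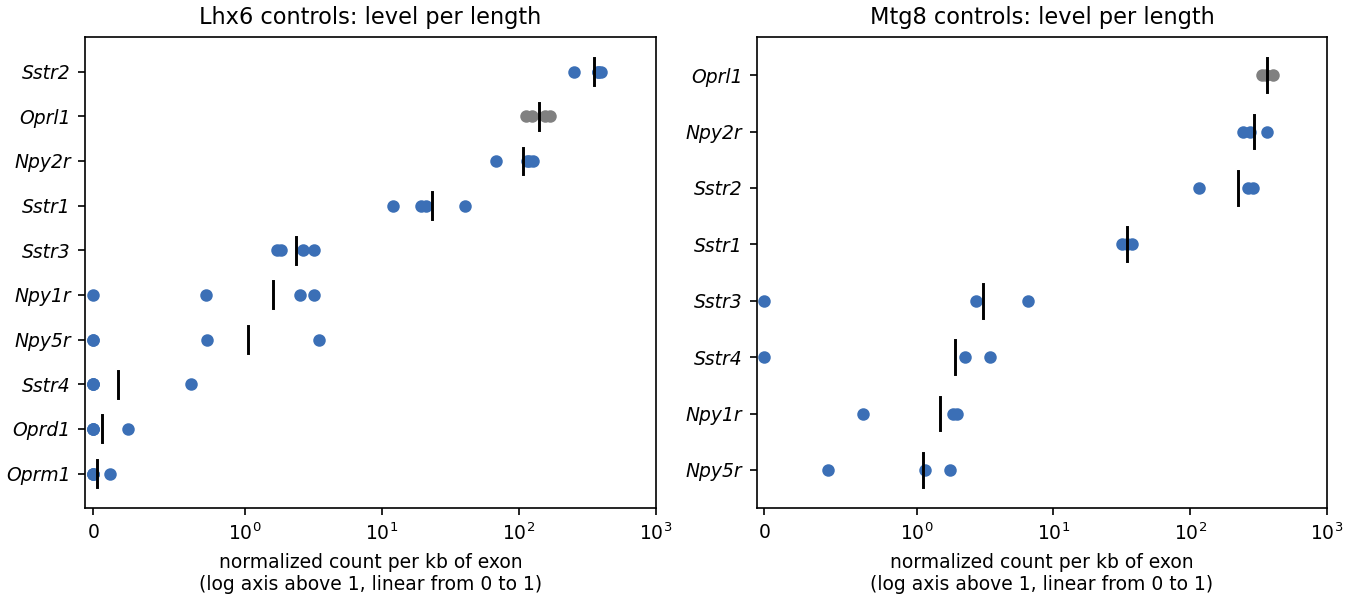
Normalized counts per kb of exon (x axis, logarithmic above 1 and linear from 0 to 1) in each control library of the *Lhx6* comparison (left, n = 4) and the *Mtg8* comparison (right, n = 3), with 1 point per library and a vertical bar at the mean, blue for the receptors studied and grey for the nociceptin receptor *Oprl1*. *Sstr2*, *Npy2r* and *Sstr1* lie above 10 per kb in every control, and the remaining receptors studied lie below 10.

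The first question was whether loss of either factor altered the receptors. None of the 5 tested in the *Lhx6* comparison passed an adjusted p of 0.05 by limma, where 1.71% of the 16727 genes tested did. At an unadjusted p under 0.05 there were 2, *Npy2r* and *Sstr1*, both lower, where 12.7% of all genes passed in either direction. edgeR called 0 of the receptors and 1.67% of all genes, and DESeq2 called 1 receptor, *Npy2r*, and 4.53% of all genes. *Sstr1* was the 1 receptor whose groups did not overlap. All mutants lay below all controls, as they did in *Sstr1*, in 3.03% of the genes tested, and above them in 3.19%. The median log2 fold change of the 5 receptors was -0.25, against -0.04 over all genes tested.

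In the *Mtg8* comparison 0 of the 4 receptors tested passed by limma, as did 0% of the 16132 genes tested. At an unadjusted p under 0.05 there were 2, *Npy2r* and *Sstr2*, where 5.49% of all genes passed. edgeR called 0 of the receptors and 0.0062% of all genes, and DESeq2 called 1 receptor, again *Npy2r*, and 0.191% of all genes. The groups did not overlap for 3 of the 4. In *Npy2r* and *Sstr1* all libraries labelled mutant lay below all controls, as in 5.52% of the genes tested, and in *Sstr2* they lay above, as in 4.68%. The median log2 fold change of the 4 receptors was 0.10, against -0.01 over all genes tested.

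**Figure D2:**
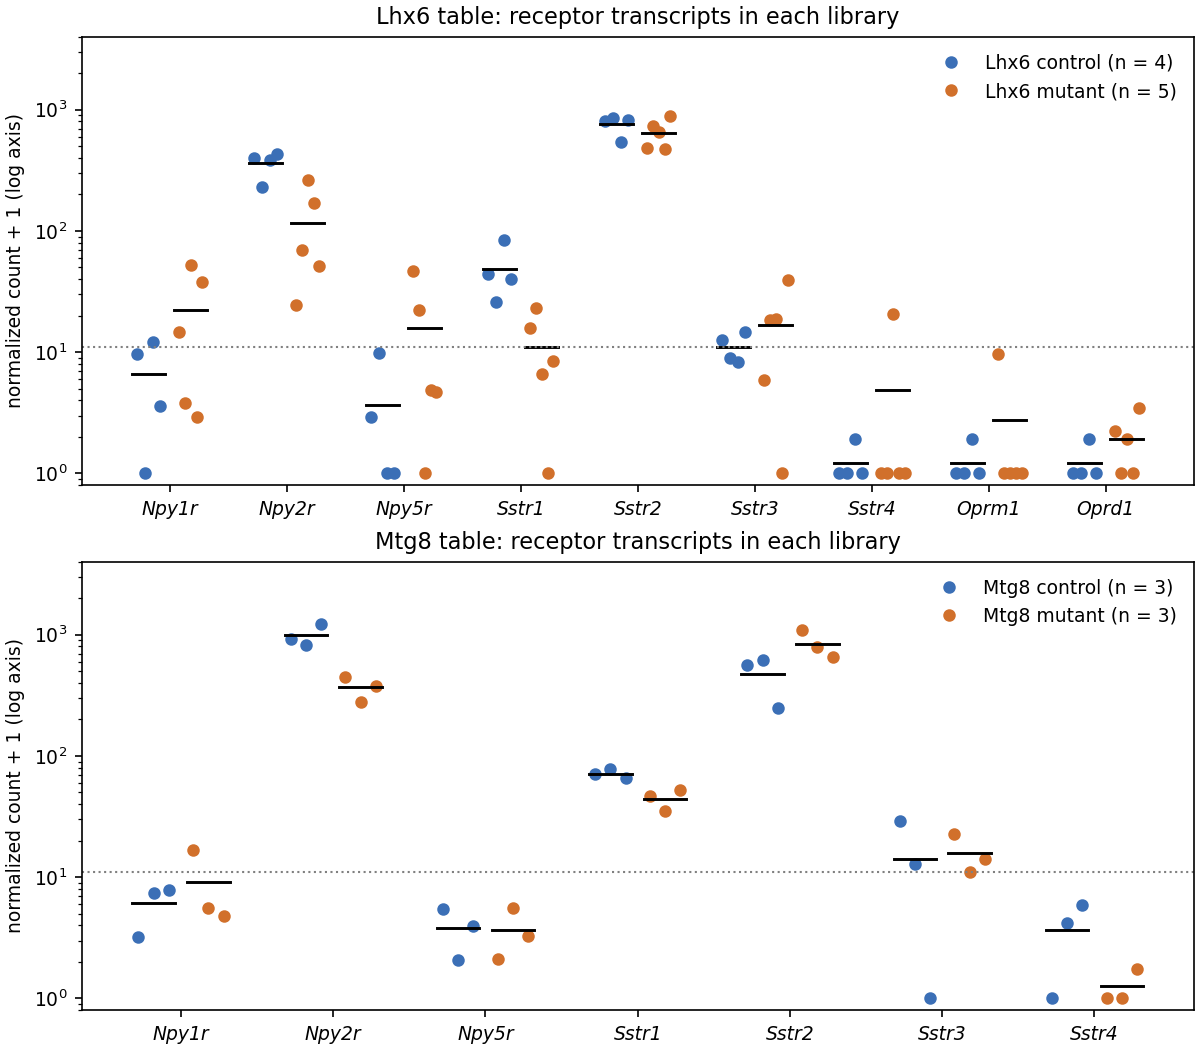
Normalized count plus 1 (y axis, logarithmic) of each receptor in every library of the *Lhx6* comparison (top, 4 controls and 5 mutants) and the *Mtg8* comparison (bottom, 3 controls and 3 libraries labelled mutant), with 1 point per library, a bar at the group mean and a dotted line at the minimum mean of 10 required for testing. The orange mutant points of *Npy2r* reach lower than the controls in both panels, those of *Sstr1* lie wholly below the controls, and those of *Sstr2* lie above the controls in the lower panel only.

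Among the NPY receptors, *Npy2r* encodes the type 2 receptor, known as a presynaptic receptor that limits release from NPY neurons themselves. In *Lhx6* controls 1 to 4 it had 400.9, 229.5, 386.0 and 431.9 normalized counts. In *Lhx6* mutants 1, 2, 3, 5 and 6 it had 23.5, 68.5, 260.8, 168.6 and 50.8. Mutant 3 alone reached into the range of the controls, above control 2, and the other 4 mutants lay below every control. The mean was 362 ± 90.4 normalized counts (SD, n = 4) for controls and 114 ± 98.5 (SD, n = 5) for mutants, which is 31.6% of the former. This amounted to a log2 fold change of -2.09 (95% interval -3.30 to -0.88, adjusted p = 0.0982 from limma), and a two-sided exact permutation test of this single gene gave p = 0.0397. DESeq2 gave -1.66 with an adjusted p of 0.0401. With each library left out in turn the limma value ranged from -2.50 to -1.65. The adjusted p was 0.0236 without mutant 3 and 0.0928 to 0.277 without any other library. In RNA from sorted populations, fewer cells expressing a receptor and less message per cell cannot be told apart.

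The *Npy2r* counts of *Mtg8* controls 1, 2 and 4 were 918.8, 819.0 and 1223.7, and those of the libraries labelled *Mtg8* mutant 2, 3 and 4 were 450.9, 280.3 and 379.9. All 3 labelled mutants lay below all 3 controls. The means were 987 ± 211 and 370 ± 85.7 (SD, n = 3 each), with 37.5% of the control counts left. The log2 fold change was -1.42 (95% interval -1.95 to -0.88, adjusted p = 0.351 from limma). DESeq2 gave the same fold change with an adjusted p of 2.5e-04. With 3 libraries a side an exact permutation test can reach no lower than p = 0.1, which was its value here. With each library left out in turn the limma value ranged from -1.57 to -1.23. The adjusted p was 0.0276 without the library labelled mutant 2 and 0.354 to 0.886 without any other library.

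*Npy2r* was lower in the libraries labelled mutant within each style of library name that held both groups, which in the *Lhx6* comparison was the undated style alone. Among undated *Lhx6* libraries, mutant 6 differed from the mean of the 4 controls by -2.77 on the log2 scale. For the *Mtg8* libraries the differences were -0.94 among dated libraries (2 controls, 1 labelled mutant) and -1.90 among undated ones (1 control, 2 labelled mutants). Against the 2 *Lhx6* controls that share its name code, mutant 6 had a difference of -2.56. Each of these rests on a single library on one side and carries no test.

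The summed level of the MGE interneuron markers also differed in the *Mtg8* comparison. It was 72030 to 74876 normalized counts in controls and 47412 to 71534 in the libraries labelled mutant, with 13 of the 15 listed markers at a fold change below 0, where 51.5% of all genes lay. Over the list 5 reached an unadjusted p under 0.05, where 5.49% of all genes did, and 0 were called by limma, edgeR or DESeq2. In the *Lhx6* comparison the sums overlapped, at 43965 to 56802 in controls and 37479 to 63167 in mutants, and the genes called by limma included *Lhx6* and *Satb1*, which were lower, and *Dlx5* and *Dlx6*, which were higher. A ratio to this list with *Lhx6* left out was added after the values had been seen. Per 1000 counts of the list, *Npy2r* had 8.10 ± 1.72 in *Lhx6* controls against 2.16 ± 1.57 in *Lhx6* mutants, and the groups, 6.02 to 10.2 and 0.376 to 4.16, did not overlap. Among *Mtg8* libraries it had 15.4 ± 2.96 in controls and 7.64 ± 1.90 in the libraries labelled mutant, with groups of 13.0 to 18.71 and 5.98 to 9.70. *Npy2r* was thus lower relative to these markers too, at 26.7% of the control ratio for the *Lhx6* mutants and 49.5% for those labelled *Mtg8* mutant.

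The other NPY receptors were near the limit of detection, where 3 reads correspond to 2.29 to 3.71 normalized counts. *Npy1r* encodes the type 1 receptor, which mediates many postsynaptic actions of NPY. It had 8.7, 0, 11.1 and 2.6 normalized counts in *Lhx6* controls and 13.6, 2.8, 51.2, 1.9 and 37.1 in *Lhx6* mutants 1, 2, 3, 5 and 6. Mutants 3 and 6 were high and mutants 2 and 5 were within the control range. The log2 fold change was 1.49, with a 95% interval of -0.83 to 3.81 and an adjusted p of 0.581 from limma. It was 0.76 without control 2, the control at 0, as with a pseudocount of 10, and 3.08 with name style as a covariate. Its *Mtg8* values stayed below the minimum mean, at 2.2 to 6.8 normalized counts in controls and 3.8 to 15.9 in the libraries labelled mutant. *Npy5r*, the type 5 receptor that lies beside *Npy1r* and is best known for its part in feeding, had 0 to 8.9 normalized counts in *Lhx6* controls. It had 45.8 in *Lhx6* mutant 1 and 21.3 in mutant 2, but 0 to 3.9 in the other 3 mutants. *Mtg8* controls had 1.1 to 4.5 of *Npy5r* and the libraries labelled mutant had 1.1 to 4.6. Mutants 3 and 6, which were high in *Npy1r*, were not high in *Npy5r*, and mutant 1 exceeded every control in both genes.

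Among the somatostatin receptors, *Sstr2* encodes a receptor widespread in the brain. Its normalized counts in *Lhx6* controls 1 to 4 were 807.5, 860.6, 543.5 and 819.3. In *Lhx6* mutants 1, 2, 3, 5 and 6 they were 481.4, 732.1, 658.5, 475.7 and 885.3. Mutants 1 and 5 lay below the controls, mutant 6 lay above them and the rest lay between. Controls averaged 758 ± 145 (SD, n = 4) and mutants 647 ± 174 (SD, n = 5), and the log2 fold change was -0.25 (95% interval -0.72 to 0.22, adjusted p = 0.646 from limma). It was -0.40 without control 3, the lowest control, and -0.15 without mutant 5. With the name style as a covariate, and so from mutant 6 alone, the value turned to 0.25.

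In *Mtg8* controls 1, 2 and 4, *Sstr2* had 562.2, 615.3 and 247.5 normalized counts, whereas the libraries labelled *Mtg8* mutant 2, 3 and 4 had 1093.2, 788.5 and 649.8. All 3 labelled mutants lay above all 3 controls, although mutant 4 exceeded control 2 only slightly. The means were 475 ± 199 and 844 ± 227 (SD, n = 3 each), and the log2 fold change was 0.90 (95% interval 0.18 to 1.62, unadjusted p = 0.0183, adjusted p = 0.859 from limma). The exact permutation p was again 0.1, its lower limit. Without control 4, the lowest library, the fold change was 0.49. It was 0.89 among dated libraries and 1.53 among undated ones.

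The pyramidal marker sum moved with *Sstr2* inside each group of the *Mtg8* comparison, but unlike *Sstr2* its groups overlapped. The sum was 10699, 14267 and 5843 normalized counts in controls 1, 2 and 4 and 23030, 12071 and 9146 in the libraries labelled mutant 2, 3 and 4. Within each group of that comparison, the libraries ranked in the same order by *Sstr2* and by the pyramidal sum. The *Lhx6* controls did so as well, but the *Lhx6* mutants did not, with mutant 3 lowest by the sum (13472) and in the middle by *Sstr2*. In the *Mtg8* comparison all 11 markers of the list had a fold change above 0, where 51.5% of all genes lay below 0. Their median was 0.50, against -0.01 over all genes tested. At an unadjusted p under 0.05 there were 4, where 5.49% of all genes passed. Limma and edgeR called 0 of them, and DESeq2, which called 0.191% of all genes, called *Emx1* and *Neurod2* higher. None of the list was at 0 in any library. Per 1000 counts of the pyramidal list, a ratio added after the values had been seen, *Sstr2* had 46.0 ± 5.67 in controls and 61.3 ± 12.3 in the libraries labelled mutant. On this scale the groups overlapped, at 42.4 to 52.5 and 47.5 to 71.0, through the library labelled mutant 2 alone. The mean ratio stood at 133% of the control ratio in these labelled mutants and at 104% in the *Lhx6* mutants, where the groups also overlapped. The summed radial glia and progenitor markers were higher in the libraries labelled mutant, at 9973 to 13989 against 7700 to 9066. So were CGE interneuron markers, at 2036 to 2568 against 1708 to 1822. Sorting on the YFP of the Nkx2-1-Cre lineage should remove pyramidal neurons. The part of these cells in the *Sstr2* difference was not tested.

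**Figure D3:**
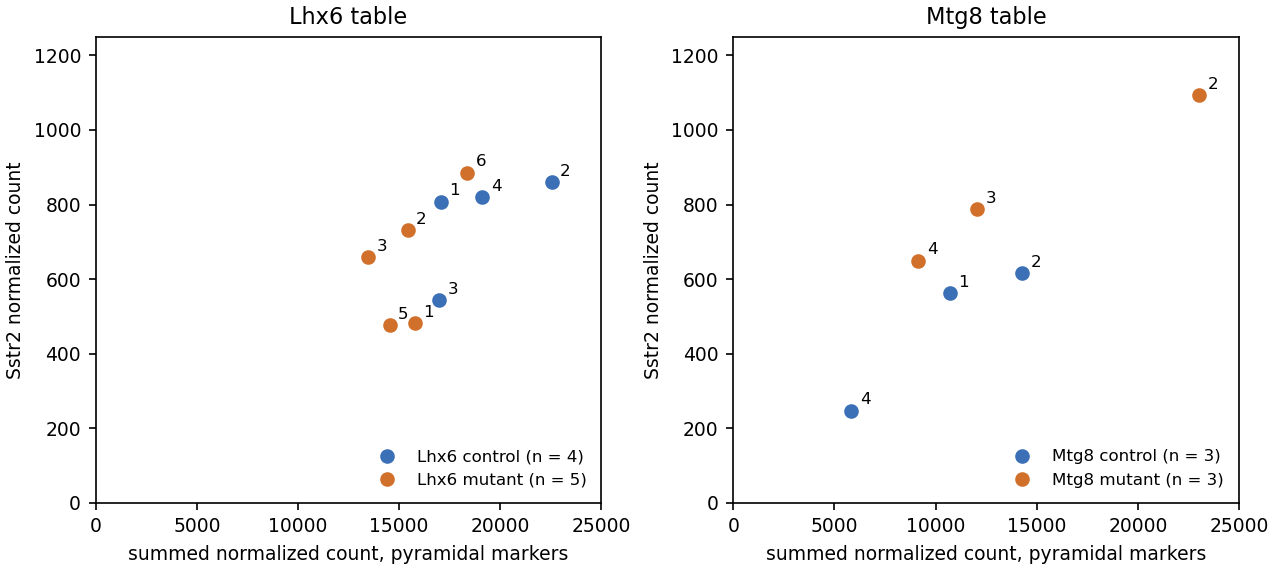
Normalized count of *Sstr2* (y axis) against the summed normalized count of 11 pyramidal lineage markers (x axis) in each library of the *Lhx6* comparison (left) and the *Mtg8* comparison (right), with 1 point per library, blue for controls and orange for mutants, and the replicate number beside it. In the right panel the library labelled mutant 2 is highest on both axes and control 4 is lowest on both.

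*Sstr1* encodes a receptor known in some brain regions as an autoreceptor of somatostatin neurons. It had 43.3, 24.8, 82.9 and 39.3 normalized counts in *Lhx6* controls 1 to 4. *Lhx6* mutants 1, 2, 3, 5 and 6 had 14.8, 22.2, 5.6, 0 and 7.4. Every mutant lay below every control, although mutant 2 and control 2 were close. Controls averaged 47.6 ± 24.9 (SD, n = 4) and mutants 10.02 ± 8.64 (SD, n = 5), or 21.1% of the controls. The log2 fold change was -2.61 (95% interval -4.38 to -0.83, adjusted p = 0.171 from limma). It was -1.54 with a pseudocount of 10 and -1.89 without mutant 5, the library at 0. The two-sided exact permutation p was 0.0159, where 4 libraries against 5 allow no less than 0.00794. These values rest on 209 reads in controls and 48 reads in mutants. Mutant 6 lay below the controls also within the undated libraries, with a difference of -2.40.

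*Sstr1* in *Mtg8* controls 1, 2 and 4 had 70.4, 76.8 and 64.6 normalized counts, against 45.3, 34.0 and 51.2 in the libraries labelled mutant 2, 3 and 4. The groups did not overlap. The means were 70.6 ± 6.11 and 43.5 ± 8.75 (SD, n = 3 each), and the log2 fold change was -0.70 (95% interval -1.42 to 0.01, adjusted p = 0.859 from limma). It was -0.69 among dated and -0.62 among undated libraries. Per 1000 counts of the MGE list without *Lhx6*, *Sstr1* had 1.11 ± 0.12 in *Mtg8* controls against 0.886 ± 0.085 in labelled mutants, or 80.0% of the control ratio. The same ratio was 1.04 ± 0.45 in *Lhx6* controls and 0.202 ± 0.182 in *Lhx6* mutants, or 19.4%.

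*Sstr3*, whose product is known as a receptor of neuronal primary cilia, had 11.5, 8.0, 7.4 and 13.7 normalized counts in *Lhx6* controls. *Lhx6* mutants 1, 2, 3, 5 and 6 had 4.9, 17.6, 17.7, 0 and 38.4, so that the mutants spread to both sides of the controls. The log2 fold change was -0.18 (95% interval -2.24 to 1.89, adjusted p = 0.945 from limma), while the mean count was higher in mutants, at 15.7 ± 14.9 against 10.1 ± 2.99. Its sign turned with the method, and edgeR gave 0.62. Among *Mtg8* libraries *Sstr3* had 27.9, 11.7 and 0 in controls 1, 2 and 4 and 10.1 to 21.5 in the libraries labelled mutant, a log2 fold change of 1.08 (95% interval -1.11 to 3.27). Without control 4, the library at 0, this value turned to -0.34, and without control 1 it was 2.09. It was 0.27 with a pseudocount of 10, 0.18 with edgeR, 0.17 with DESeq2 and 1.94 with name style. *Sstr4* was carried by 1 read in the *Lhx6* controls together and by 21 reads in *Lhx6* mutants, all of them in mutant 3. Among *Mtg8* libraries *Sstr4* had 8 reads in controls and 1 read in the libraries labelled mutant.

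The classical opioid receptors were scarcely detected. *Oprm1*, the mu receptor, had 1 read in the 4 *Lhx6* controls, in control 3, and 7 reads in the 5 *Lhx6* mutants, all in mutant 1. *Oprd1*, the delta receptor, had 1 read in controls and 4 reads in mutants, spread over mutants 1, 3 and 6. Both were below the minimum mean, and with no such minimum limma gave 0.42 for *Oprm1* (adjusted p = 0.903) and 0.55 for *Oprd1* (adjusted p = 0.792). By contrast *Oprl1*, which encodes the nociceptin receptor of the same family, was abundant, at 141 ± 26.4 normalized counts per kb in *Lhx6* controls and 364 ± 34.4 in *Mtg8* controls. It was 422.5 to 634.5 normalized counts in *Lhx6* controls and 373.7 to 598.9 in *Lhx6* mutants, with a log2 fold change of -0.10 (95% interval -0.52 to 0.33). Among *Mtg8* libraries it had 1254 to 1507 in controls and 626 to 1220 in the libraries labelled mutant. Those groups did not overlap, and the log2 fold change was -0.57 (95% interval -1.11 to -0.04, unadjusted p = 0.0387, adjusted p = 0.859 from limma). Without the library labelled mutant 3 it was -0.30. The remaining relatives *Npy4r*, *Npy6r* and *Sstr5* were not analysed here.

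The peptide ligands of these receptor families were examined next. Of 8 ligand genes, 7 were listed and 6 tested in the *Lhx6* comparison, and limma called 3 of the 6, where it called 1.71% of all genes. *Npy* and *Sst* fell, and *Pnoc*, whose product binds *Oprl1* and not the receptors studied, rose. *Sst* had 11145, 11131, 10942 and 12780 normalized counts in controls and 1180 to 1696 in mutants, a log2 fold change of -3.06 (standard error 0.13). *Npy* had 4417 to 4862 in controls and 1041 to 2213 in mutants, a log2 fold change of -1.61 (standard error 0.22, adjusted p = 0.00153 from limma). *Npy* and its receptor gene *Npy2r* stood at 34.4% and 31.6% of their control levels, whereas *Sst* stood at 12.07% beside 85.3% for *Sstr2* and 21.1% for *Sstr1*.

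*Cort* encodes cortistatin, a peptide related to somatostatin that binds the same receptors. It had 27.9, 67.4, 36.8 and 29.9 normalized counts in *Lhx6* controls and 0, 7.4, 1.9, 9.7 and 17.3 in *Lhx6* mutants 1, 2, 3, 5 and 6. Every mutant lay below every control, and the log2 fold change was -2.84 (95% interval -4.60 to -1.09, adjusted p = 0.125 from limma, adjusted p = 0.0229 from DESeq2). With a pseudocount of 10 limma gave -1.58 (adjusted p = 0.0446), with name style -1.09, and without mutant 1, the library at 0, it gave -2.23. *Pnoc*, the precursor of nociceptin, moved the other way. It had 116.3, 82.4, 94.0 and 80.4 normalized counts in *Lhx6* controls and 1001.1, 958.9, 792.6, 814.7 and 453.2 in mutants 1, 2, 3, 5 and 6, a log2 fold change of 3.06 (standard error 0.24). Mutant 6, the undated one, was the lowest of the mutants and still lay above every control. Its receptor gene *Oprl1* thus stayed within the control range or just below it while the ligand precursor rose. The opioid precursor *Penk* had 7.7 to 24.8 normalized counts in controls and 0 to 54.0 in mutants. Its log2 fold change of 0.03 rested on single libraries, with 0.99 without mutant 1, the library at 0, and -0.46 without mutant 3. *Pomc* had a log2 fold change of -0.13, which turned to 0.14 without mutant 3, and *Pdyn* was below the minimum mean. The summed striatal and subpallial markers were higher in *Lhx6* mutants, at 1575 to 3149 against 1025 to 1491 in controls. In that list limma called 0 of 9 tested, with 5 at an unadjusted p under 0.05, and DESeq2 called 2, *Foxp1* and *Foxp2*, higher. Over all genes the shares were 1.71%, 12.7% and 4.53%. The summed CGE interneuron markers had 1667 to 2036 normalized counts in controls and 1525 to 2528 in mutants. These groups overlapped through mutant 3 alone, at 1525, and the other mutants, at 2375 to 2528, lay above every control. In that list limma called *Npas1* and *Htr3a* lower, and DESeq2 called *Nr2f2* and *Sp8* higher in addition. The part of these cells in *Pnoc* was not tested. With name style as a covariate *Pnoc* kept its call, at 2.28 with an adjusted p of 0.00633 from limma.

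In the *Mtg8* comparison 0 of the 6 ligand genes tested passed by limma or edgeR, with 2 at an unadjusted p under 0.05, and DESeq2 called 2, *Sst* and *Npy*. Over all genes limma called 0%, edgeR 0.0062% and DESeq2 0.191%, and 5.49% reached an unadjusted p under 0.05. *Sst* had 14420 to 18501 normalized counts in controls and 5683 to 8048 in the libraries labelled mutant, with a log2 fold change of -1.34 (adjusted p = 0.0713 from limma, 9.2e-06 from DESeq2). Without the library labelled mutant 2 the limma value of *Sst* was -1.24 with an adjusted p of 0.0262, and with a minimum mean of 50 its adjusted p was 0.0493. *Npy* had 5037 to 6247 and 1952 to 3577, with a log2 fold change of -1.13 (adjusted p = 0.580 from limma, 0.0247 from DESeq2). In both genes all labelled mutants lay below all controls, as in *Npy2r*. *Cort* lay the other way, at 10.7 to 13.4 in controls and 13.8 to 21.1 in the libraries labelled mutant, with a log2 fold change of 0.53 (adjusted p = 0.895 from limma). *Pnoc* had 183.9 ± 22.9 and 185.2 ± 32.0 normalized counts (SD, n = 3 each), a log2 fold change of 0.00 with a 95% interval of -0.55 to 0.56. *Penk* and *Pomc* had overlapping groups, with log2 fold changes of 0.38 and 0.22. That of *Penk* turned to -0.21 without the library labelled mutant 2. That of *Pomc* was 0.027 without the library labelled mutant 3 and 0.47 without control 2. Whether any gene differed in its difference between the *Lhx6* and the *Mtg8* comparison was not tested.

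**Figure D4:**
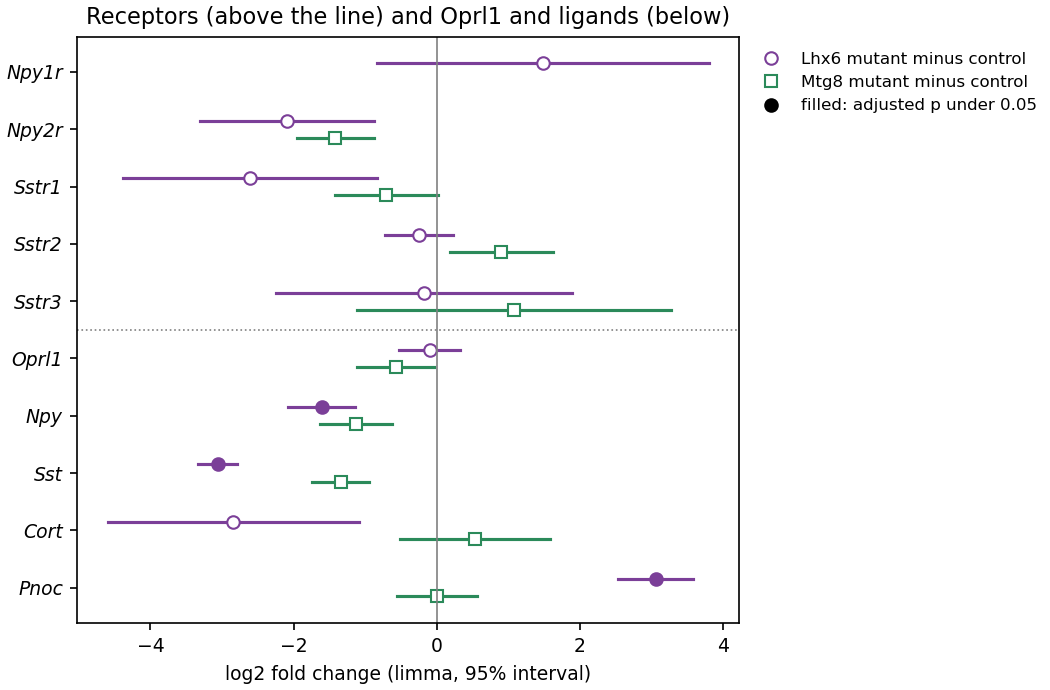
Log2 fold change, mutant minus control, with its 95% interval from limma (x axis) for the receptors tested (above the dotted line) and for *Oprl1* and 4 ligand genes (below it), with purple circles for *Lhx6* and green squares for the libraries labelled *Mtg8* mutant. Filled symbols, at an adjusted p under 0.05, occur for *Npy*, *Sst* and *Pnoc* in the *Lhx6* comparison only.

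The machinery around the receptors was then examined as lists. Of 12 genes for processing and breakdown of peptides, 11 were tested in the *Lhx6* comparison and 1 was called by limma, which called 1.71% of all genes. This was *Pcsk2*, a convertase that cleaves peptide precursors. It fell from 143 ± 21.4 to 48.0 ± 7.46 normalized counts, a log2 fold change of -1.56 (standard error 0.25, adjusted p = 0.00462 from limma), and all mutants lay below all controls. The call of *Pcsk2* was lost with name style as a covariate (-1.61, adjusted p = 0.238), at a fold close to the first. DESeq2, which called 4.53% of all genes, called 2 of the list, *Pcsk2* and *Pam*, which encodes the enzyme that amidates peptides. *Pam* had a log2 fold change of -0.75 (adjusted p = 0.0991 from limma). The list as a whole had a median of -0.28 against -0.04 over all genes tested. Of the 18 receptor kinases, arrestins and RGS proteins tested, which end receptor signalling, 1 was called, *Rgs10*, which accelerates the turnover of GTP on Gi/o subunits. It rose from 81.6 ± 7.35 to 268 ± 33.8 normalized counts, a log2 fold change of 1.70 (standard error 0.19, adjusted p = 4.0e-04 from limma). Its mutants lay at 216.1 to 301.9 and its controls at 73.5 to 90.3. Here too the call was lost and the fold kept its size with name style (1.63, adjusted p = 0.0833).

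None of the 5 Gi/o alpha subunits, 3 GIRK channel subunits or 6 adenylyl cyclases tested was called in *Lhx6* mutants by limma or edgeR. At an unadjusted p under 0.05 there were 2, 1 and 1 of them, where 12.7% of all genes passed. DESeq2, which called 4.53% of all genes, called 2 Gi/o subunits, *Gnao1* and *Gnai2*, and 1 cyclase, *Adcy2*. The member of each list with the largest change is given. *Gnao1*, the Go subunit abundant in brain, had 1814 to 2263 normalized counts in controls and 2265 to 5523 in mutants, a log2 fold change of 0.81 (adjusted p = 0.0758 from limma, 0.00524 from DESeq2). The adenylyl cyclase *Adcy2* had 1.8 to 28.6 in controls and 23.5 to 113.6 in mutants, a log2 fold change of 2.39 (adjusted p = 0.129 from limma, 0.0126 from DESeq2). In both genes mutant 6, the undated mutant, was the lowest mutant. Without it, when name style and genotype coincide fully, limma gave 0.97 for *Gnao1* (adjusted p = 0.00838) and 2.77 for *Adcy2* (adjusted p = 0.0467). *Adcy2* had 1.62 without control 2 and 1.70 with a pseudocount of 10. With name style as a covariate, and so from mutant 6 alone, the values were 0.16 and 0.84, and neither passed. The GIRK subunit *Kcnj5* had 5.5 to 41.9 in controls and 0 to 37.1 in mutants, a log2 fold change of -2.24 (95% interval -4.59 to 0.11). This value turned to 1.005 with name style, and was -0.92 with a pseudocount of 10, -1.35 with edgeR, -1.34 with DESeq2 and -3.05 without mutant 6. Of 8 receptors for other neuropeptides that were tested, 0 were called by limma, edgeR or DESeq2, with 0 at an unadjusted p under 0.05, and the largest change was in *Kiss1r*, the kisspeptin receptor, at 1.63 with overlapping groups. Without control 4 it was 0.91, and with a pseudocount of 10 it was 0.70.

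The same lists held 0 genes called by limma, edgeR or DESeq2 in the *Mtg8* comparison, where 11 processing genes, 5 Gi/o subunits, 3 GIRK subunits, 6 adenylyl cyclases, 18 kinases, arrestins and RGS proteins and 9 receptors for other neuropeptides were tested. At an unadjusted p under 0.05 there was 1 cyclase, 1 RGS protein and 1 receptor for another neuropeptide, where 5.49% of all genes passed. *Pcsk2* had 288.4 to 326.7 normalized counts in controls and 195.7 to 266.2 in the libraries labelled mutant, a log2 fold change of -0.45 (adjusted p = 0.859 from limma). *Rgs10* had a value of -0.25 and *Gnao1* one of 0.12. *Kiss1r* had a log2 fold change of -1.57 (95% interval -2.84 to -0.30, adjusted p = 0.859 from limma), and its groups overlapped through mutant 4, without which the value was -2.23.

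Genes whose pattern over the 15 libraries lay closest to those of *Sstr1* and *Npy2r* were sought among the 15628 genes tested in both comparisons. Likeness was the root mean square difference of log2 values centred on the control mean of each comparison, so that the libraries and their depth are shared by the genes compared. Since the genes were picked for this likeness over the same libraries, their fold changes are a description and no test is given. Closest to *Npy2r* were the kinase genes *Sgk1* (0.739) and *Rps6ka5* (0.740) and the gene model *Gm4798* (0.759). For *Rps6ka5* the *Lhx6* comparison gave -1.89 on the log2 scale, and the *Mtg8* comparison gave -0.33, or -0.12 without the library labelled mutant 3. *Sgk1* had -1.33 in the *Lhx6* comparison, or -0.82 with name style, and -0.53 in the *Mtg8* comparison. *Gm4798* had -1.48 and -0.51 in the same order, the latter at -0.33 without *Mtg8* control 4. Closest to *Sstr1* were *Shc3* (0.788), which encodes a signalling adaptor, *Lhfpl3* (0.946) and *Chodl* (0.948). Their log2 fold changes in the *Lhx6* comparison were -1.89 for *Shc3*, -2.03 for *Lhfpl3* and -1.86 for *Chodl*. *Shc3* had -1.09 with a pseudocount of 10 and -0.86 with name style. *Chodl* had -0.94 without mutant 5, -1.09 with a pseudocount of 10 and -1.25 with edgeR. In the *Mtg8* comparison *Shc3* and *Lhfpl3* had log2 fold changes of -0.78 and -0.72, while *Chodl* had 0.45 with all libraries and 0.094 without control 1.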

How the data were processed

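From the cortex of each E14.5 embryo, YFP+ cells were sorted and sequenced, giving 15 RNA-seq libraries. Per the methods of the study and the submitters' processing notes, reads were trimmed with fastp 0.20.1, aligned with STAR 2.7b and counted per gene with featureCounts 1.6.4 (GENCODE, GRCm38.p6). Sex-linked genes were removed. Whether counting used strand is not given in the sources used here. The signal that the authors deposited is each gene's count divided by the DESeq2 size factor of the library, normalized separately for each comparison. The authors' own log2 fold changes, standard errors, test statistics and p-values stand in the same tables and were not used.

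Groups and replicate numbers came from the sample titles. Values were whole multiples of 1 read in 100% of cases within a tolerance of 0.01, so that whole reads were recovered. Differences were tested within each comparison on log2(normalized count + 1) with limma 3.58.1 (R 4.3.3, trend option on), where the mean reached at least 10. Tests were two-sided, with Benjamini-Hochberg adjustment over all genes tested and a threshold of 0.05. Fold changes from limma are on the log2(value + 1) scale, where the pseudocount shrinks low values and a mean of logs gives libraries at 0 more weight than a ratio of means does. Those from edgeR and DESeq2 come from the reads. The study's own test, DESeq2 (1.42.0), and edgeR (4.0.16) were run on the recovered reads as alternatives. In the *Lhx6* comparison limma called 286 genes, edgeR called 111 lower and 169 higher, and DESeq2 called 271 lower and 540 higher. In the *Mtg8* comparison limma called 0, with 886 genes at an unadjusted p under 0.05, edgeR called 0 lower and 1 higher, and DESeq2 called 10 lower and 21 higher. Single genes were given exact permutation tests. The procedure was tested on simulated data. Intervals and read floors cover counting error or the spread between embryos only, since reads carried no molecular identifiers, and the few embryos limit precision.

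Named genes were the receptors, both targeted genes, the ligands, and from each other list the called genes. Where a list had no called gene, the gene with the largest fold change in the *Lhx6* comparison was named. In the *Mtg8* comparison the largest changes of the machinery lists were in *Cpe*, *Gnaz*, *Kcnj9*, *Adcy9*, *Rgs20* and *Kiss1r*. The receptors and all lists were chosen with earlier results of these data known. Also tried were pseudocounts of 0.5 and 10, minimum means of 50 or none, scaling by TMM or by equal totals, no trend, an adjusted p under 0.01, a replicate block, the name style as a covariate and each library left out in turn. Promoter windows were taken from RefSeq by gene symbol, and gene models were checked for overlaps in GENCODE M21.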

Additional observations from a re-analysis of the deposited data

Results flagged for a closer look

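The 9 receptors listed in the *Lhx6* comparison were each screened in the group of 4 controls and in the group of 5 mutants. The *Mtg8* groups of 3 libraries were not screened. In this screen 6 receptor values stood apart from the rest of their group, and chance alone marks about 1 in 20 groups in this way. *Sstr2* was low in *Lhx6* control 3, at 543.5 normalized counts, where the other 3 controls had 807.5 to 860.6. The gap to the nearest control was 0.833 of the whole range, against a critical value of 0.829. The other 5 values concern genes at or near 0, where a single library held all reads of its group. With every other library at 0 the gap is the whole range by construction, so the rate of 1 in 20 does not apply to these 5. *Sstr4* had 19.6 normalized counts in *Lhx6* mutant 3 and 0 in the other 4 mutants, and *Oprm1* had 8.66 in *Lhx6* mutant 1 and 0 in the other 4. *Sstr4*, *Oprm1* and *Oprd1* each had 0.921 in *Lhx6* control 3, which is 1 read, and 0 in the other controls.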

How the results depend on the processing

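Of the values recomputed with every library kept, 582 stayed on their side of the threshold in the same direction, 14 passed it anew, 8 no longer passed it and 13 turned sign. The number of receptors called was 0 by limma in both comparisons. It was 1 with DESeq2 in each (*Npy2r*), 0 to 1 with each library left out in turn in each (*Npy2r*, without *Lhx6* mutant 3 or without the library labelled *Mtg8* mutant 2), and 0 under all other settings except the block. With the replicate number as a block, 0 receptors were called in the *Lhx6* comparison and 2 in the *Mtg8* comparison, *Npy2r* (-1.27, adjusted p = 0.00233) and *Sstr2* (1.11, adjusted p = 0.0185) by limma, as were the ligand genes *Sst* (-1.47, adjusted p = 1.6e-04) and *Npy* (-1.43, adjusted p = 5.4e-05). In the *Lhx6* comparison the block moved *Sstr1* to -1.77, *Cort* to -3.87, *Kcnj5* to -3.11, *Adcy2* to 3.21 and *Chodl* to -0.97. The labels do not say that equal numbers are paired. The deviations of equally numbered libraries correlated at -0.15, 0.00 and 0.07 in 3 *Lhx6* pairs and at 0.14 and 0.16 in 2 *Mtg8* pairs. Values that turned sign in the *Lhx6* comparison were those of *Sstr3*, at 0.16 with a pseudocount of 10, 0.62 with edgeR, 0.63 with DESeq2, 0.38 with the block and 1.86 with name style, of *Sstr2* at 0.25 and of *Kcnj5* at 1.005, both with name style, and of *Penk*, at -0.14 with a pseudocount of 0.5, -2.8e-04 with TMM, -0.010 with equal totals and -0.58 with the block. In the *Mtg8* comparison *Chodl* turned to -0.20 and *Pomc* to -0.11 with the block, which moved *Sstr3* to 2.32 and *Oprl1* to -0.36. With each library left out, *Sstr3* ranged from -0.69 to 0.64, *Penk* from -0.46 to 0.99 and *Pomc* from -0.27 to 0.14 in the *Lhx6* comparison. In the *Mtg8* comparison *Sstr3* ranged from -0.34 to 2.09, *Pnoc* from -0.13 to 0.083, *Kcnj5* from -1.32 to 0.14, *Adcy2* from -0.22 to 0.66, *Penk* from -0.21 to 0.71, *Pam* from -0.046 to 0.35 and *Gnao1* from -0.10 to 0.26. The calls of *Pcsk2*, *Rgs10* and *Runx1t1* in *Lhx6* mutants were lost with the block and with name style, the latter resting on mutant 6 alone, while over all settings with every library kept the values stayed at -1.74 to -1.40, 1.596 to 1.71 and 0.73 to 1.34. The cause was not tested. Receptors below a mean of 10 normalized counts had few or no reads in most libraries, and the reads of *Npy5r* and *Sstr4* in *Lhx6* mutants came mainly from 1 or 2 libraries.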
